A study of Mus musculus with 12 samples.

Results

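LiCl treatment moved a set of genes in opposite directions in mouse embryonic fibroblasts with HSF1 (wild type, WT MEF) and without it (knock-out, HSF1 KO MEF), and moved another set only in the knock-out cells. These genes are described here. RNA was sequenced in 12 libraries, 3 in each of 4 groups, which were WT MEF and HSF1 KO MEF without treatment and the same cells after 48 h with 20 mM LiCl. The difference between the responses (LiCl response of WT MEF minus LiCl response of HSF1 KO MEF, called the interaction below) was tested for 12279 genes with limma on log2(FPKM + 1), where FPKM is a level scaled to transcript length and library size. Of these, 3846 genes (31.3%) passed an adjusted p of 0.05. Among the genes that passed, 129 rose in WT MEF and fell in HSF1 KO MEF, 162 fell in WT MEF and rose in HSF1 KO MEF, 316 rose in HSF1 KO MEF with no call in WT MEF, and 228 fell in HSF1 KO MEF with no call in WT MEF, each response having its own adjusted p. The members were chosen on these calls, so their changes are given as a description of the genes.

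HSF1 is the transcription factor that switches on chaperone genes when proteins unfold, and it binds heat shock elements (HSE), which are inverted repeats of GAA. LiCl blocks GSK3β, which otherwise tags β-catenin for destruction, and so turns on WNT/β-catenin signaling. Fibroblast cultures from embryos are rich in collagen and contractile proteins and can also hold other embryonic cells such as macrophages. The sources used here do not describe the origin of the 2 cultures or the design of the knock-out. The study calls the cells HSF1 knock-out in its text and labels, but a figure caption on these data writes HSF1+/−. Here, without HSF1 means the cells labeled as knock-out.

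The knocked-out gene was checked first. Hsf1 was at 11.1, 7.96 and 8.17 FPKM in untreated WT MEF and 0.939, 3.89 and 2.07 FPKM in the knock-out cells, and with LiCl at 14.5, 13.3 and 11.2 FPKM in WT MEF against 3.65, 7.64 and 5.92 FPKM in the knock-out cells. No library of the knock-out cells overlapped the libraries of WT MEF under the same treatment, although transcripts of the locus were still counted in the knock-out cells. The Y-linked genes Ddx3y, Eif2s3y, Kdm5d and Uty were present in every library of WT MEF, with Eif2s3y at 14.9 to 19.8 FPKM, and were at 0 to 0.094 FPKM in every library of the knock-out cells. The effect of HSF1 and other differences between the 2 cultures cannot be told apart. Across genes, r was 0.976 to 0.983 within a group and 0.823 to 0.933 between groups, and summed FPKM per library was 344208 to 370025.

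LiCl changed much of the transcriptome in both genotypes. In WT MEF 4680 genes rose (38.1% of those tested) and 3330 fell (27.1%), and without HSF1 4480 rose (36.5%) and 2592 fell (21.1%). These 2 responses share no library. The interaction was higher in WT MEF for 1875 genes (15.3%) and lower for 1971 genes (16.1%), so about the same number leaned to each side. Median-of-ratios scaling lowered the median response of all genes from 0.126 to -0.017 in WT MEF and from 0.163 to -0.005 in the knock-out cells on the log2 scale, and the calls then split into 3801 higher and 3980 lower in WT MEF and 3228 higher and 3460 lower in the knock-out cells. Some small responses gained or lost their call with this shift, and these are given beside the genes named.

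The 4 sets were a small part of the interaction. Genes that rose in WT MEF and fell in the knock-out cells were 1.05% of all genes tested, those with the reverse pattern were 1.32%, those that rose only in the knock-out cells were 2.57% and those that fell only there were 1.86%. More often, both genotypes moved the same way by different amounts, as for 883 genes (7.19%) that rose more in WT MEF, 716 (5.83%) that fell more in WT MEF and 250 (2.04%) that fell more in the knock-out cells. A response was called only in WT MEF for 380 genes that rose (3.09%) and 613 that fell (4.99%). The log2 change was at least 0.5 in each genotype for 37 of the 129 genes and 35 of the 162 genes. Under FPKM, median-of-ratios scaling and quantile normalization alike, 87 of the 129 genes, 71 of the 162, 160 of the 316 and 173 of the 228 stayed in their set. The interaction itself did not change sign for any of these genes under the other scalings.

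**Figure D1:**
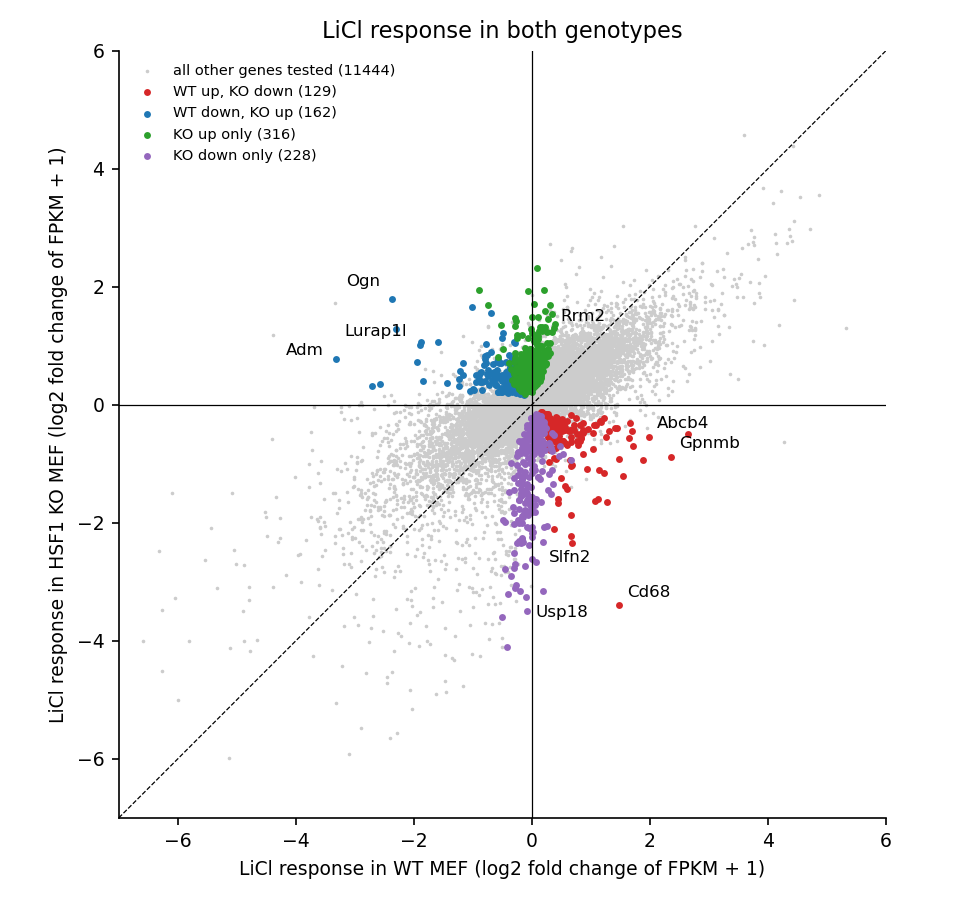
Each point is 1 gene, with its log2 fold change after LiCl in WT MEF on the x axis and in HSF1 KO MEF on the y axis, both on the log2(FPKM + 1) scale and each the mean of 3 libraries against 3. The 129 and 162 genes with opposite responses lie at the lower right and upper left, the 316 and 228 genes called only in HSF1 KO MEF lie along the vertical line, and the dashed line marks equal responses.

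The genes that rose in WT MEF and fell in the knock-out cells included genes of phagocytic cells and of the lysosome. Macrophage markers as a group did not rise in WT MEF, where 2 of 21 tested rose (Cd68 and Cd14) and 13 fell. Cd68, the gene of a glycoprotein of macrophage lysosomes, spans 69664213 to 69666153 on chromosome 11 (GRCm38). Its libraries read 2.07, 3.93 and 4.16 FPKM in untreated WT MEF and 11, 11.6 and 10.3 FPKM with LiCl, against 42.2, 43.6 and 42.5 FPKM in the knock-out cells and 3.34, 3.35 and 2.77 FPKM with LiCl. Treated and untreated libraries did not overlap in either genotype, and untreated HSF1 KO MEF had by far the highest level of the 4 groups. The response was 1.48 in WT MEF and -3.40 in the knock-out cells on the log2 scale, with an interaction of 4.88 (standard error 0.24, adjusted p = 1.79e-07 from limma).

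Gpnmb encodes a transmembrane glycoprotein of lysosomes and melanosomes and was the most abundant gene among the leading members (chromosome 6, 49036546 to 49070929). It was at 40.5, 40.7 and 40.8 FPKM in WT MEF and rose to 216, 218 and 204 FPKM with LiCl, whereas in the knock-out cells it went from 160, 160 and 167 FPKM to 90.2, 86.6 and 86.1 FPKM. The untreated knock-out level thus lay between both WT MEF levels, and the order of the genotypes reversed with treatment (interaction 3.24, standard error 0.06, adjusted p = 8.96e-10 from limma). Abcb4, a phospholipid transporter gene, differed from these in that the genotypes started alike. It was at 1.16, 1.18 and 1.34 FPKM in untreated WT MEF and 1.13, 1.19 and 1.62 FPKM in the knock-out cells, and with LiCl at 7.71, 8.27 and 7.39 FPKM in WT MEF against 0.376, 0.674 and 0.735 FPKM in the knock-out cells.

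Several leading members encode receptors and signaling proteins of myeloid cells. Cd14, the co-receptor for bacterial lipopolysaccharide, was at 12.8, 13.1 and 12.3 FPKM in untreated WT MEF and 21.9, 20.8 and 19.7 FPKM with LiCl, and fell in the knock-out cells from 49, 40.8 and 40.1 FPKM to 8.62, 9.55 and 7.33 FPKM. Havcr2 encodes an inhibitory immune receptor. It went from 0.535, 0.71 and 0.426 FPKM to 3.16, 3.31 and 3.42 FPKM in WT MEF, while the knock-out cells went from 4.58, 5.39 and 5.12 FPKM to 2.49, 2.03 and 2.06 FPKM. In both genes the libraries with LiCl lay closer together across genotypes than the libraries without it.

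Cd300lb and Cd300lf, which encode receptors of the CD300 family, had interactions of 3.13 and 2.49, and Cfp, the gene of the complement regulator properdin, had 3.03. Syk, a kinase gene downstream of immune receptors, had 2.01. The CD300 genes are a cluster of related copies, so reads may have been split among them. Levels of several of these genes were low. Folr2, a folate receptor gene, was at 0.231, 0 and 0.096 FPKM in untreated WT MEF and 0.359, 1.21 and 0.793 FPKM with LiCl, and its rise in WT MEF lost its call in 4 of 12 fits that left out 1 library (untreated or treated WT MEF, replicate 2 or 3, adjusted p up to 0.118) and with replicate number as a block (adjusted p = 0.0553). Cd300lf was at 0.078, 0.13 and 0.187 FPKM in untreated WT MEF and 0.464, 0.473 and 0.488 FPKM with LiCl, and with its highest transcript alone the response there was 0.00.

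Genes of other functions followed the same pattern. Fxyd5, which encodes a regulator of the sodium pump, went from 50, 44.8 and 71.9 FPKM to 118, 154 and 119 FPKM in WT MEF, while the knock-out cells went from 58.1, 57.6 and 67.8 FPKM to 26.3, 28.9 and 25.5 FPKM. Its untreated libraries overlapped between the genotypes and its treated libraries were far apart. Kcnn4, a calcium-activated potassium channel gene, had log2 responses of 1.72 with HSF1 and -0.70 without it. Lgals3, the gene of galectin-3, was at 134, 135 and 116 FPKM in untreated WT MEF and 448, 428 and 370 FPKM with LiCl, and at 115, 144 and 122 FPKM in the knock-out cells and 88.4, 112 and 79.4 FPKM with LiCl. The rise of Lgals3 in WT MEF was the large part of its difference, since its fall in the knock-out cells was -0.45 (adjusted p = 0.0137 from limma). Jag1, a Notch ligand gene, rose by 0.79 and fell by 0.68, with libraries at 3.28 to 3.68 and 6.43 to 7.04 FPKM in WT MEF and at 9.64 to 11.4 and 5.51 to 6.73 FPKM in the knock-out cells.

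Opposite changes were also found for some interferon, antigen presentation and lipid genes. Ifi207, a member of the interferon-inducible p200 family whose copies are alike, was at 2.12, 2.32 and 2.01 FPKM in untreated WT MEF and 7.09, 7.03 and 5.76 FPKM with LiCl, and at 8.05, 7.6 and 9 FPKM in the knock-out cells and 1.93, 1.61 and 2.27 FPKM with LiCl. Its treated WT MEF libraries thus reached nearly the level of untreated HSF1 KO MEF, and the converse. Ifi35 had an interaction of 2.01, and Ifitm3, an antiviral membrane protein gene, went from 693, 695 and 701 to 986, 986 and 870 FPKM in WT MEF, while the knock-out cells went from 819, 948 and 753 to 598, 572 and 530 FPKM. The class I gene H2-Q4 and Tapbp, whose product loads peptides onto class I molecules, had interactions of 1.36 and 0.94. Under median-of-ratios scaling the rises of Tapbp (0.00) and of Lss (0.23, adjusted p = 0.0751 from limma) in WT MEF were not called. H2-Q4, H2-K1, Ifitm3, Slfn2, Oas1g and Ccl12 also have close copies, so their levels are uncertain in the same way as those of the CD300 genes and Ifi207. Of 31 sterol and fatty acid genes tested, 22 fell and 5 rose in WT MEF, and 24 fell and 2 rose in the knock-out cells. Only 2 of the 31 had opposite responses. These were Lss (lanosterol synthase) and Fads2 (a fatty acid desaturase), with interactions of 0.94 and 0.89. Ctsz and Lgmn, which encode lysosomal proteases, had 0.65 and 0.89. Of 4 skeletal muscle markers tested Acta1 and Tnnt2 were in the set, whereas Des fell in both genotypes and Mylpf had no call. Of 2 endothelial markers tested Vwf was in the set and Esam rose in both genotypes. Vwf was at 0.011, 0.025 and 0.029 FPKM in untreated WT MEF and 2.01, 2.5 and 2.25 FPKM with LiCl. In the untreated knock-out cells the 2 endothelial markers together summed to 0.639 to 0.825 FPKM, so the fall of Vwf there started under 1 FPKM.

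The study lists genes that it took to respond to LiCl only with HSF1 and gives the HSE found in their promoter regions. Of the 129 genes 22 are in that list, which was drawn from these libraries, and 8 of the 22 have an element there, against 360 of the 859 listed genes tested here. The list holds genes taken to rise with LiCl in WT MEF and not without HSF1, so its overlap with the 129 genes follows in part from its definition. None of the 162 genes with the reverse pattern is in it, which was fixed in advance because these fell in WT MEF. The elements of the leading members are printed because they are the letters that the study assigned to HSF1, with the inverted repeats in capitals and their genome position not given. Kcnn4 has another element besides the one printed.
Gpnmb: tGAAtgTTCg
Ifi207: gGAAggTTCa
Havcr2: gGAAcaTTCt
Kcnn4: gGAAacTTCg

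Across the 32851 RefSeq promoter windows of GRCm38.p6, each 300 bases from 250 before a start site, 7.86% hold this inverted pair (GAANNTTC, which reads the same on both strands), so a match occurs in many genes of no set. The element of Havcr2 was found again in its own window (chr11:46454788-46454811, forward strand, pair in capitals), and the same window held the box read by PU.1, the macrophage factor (GAGGAAGT, chr11:46454915-46454938, capitals), as 3.20% of all windows did on either strand. Ifi207 held an interferon-stimulated response element (ISRE, searched on both strands as GAAA, any 2 bases and GAAA, 3.44% of all windows) at chr1:173741834-173741857 on the reverse strand. Igfbp5, a gene with the reverse pattern, held an inverted pair as well (chr1:72874859-72874882, reverse strand), so the pair occurs in either set.
Havcr2, HSE pair: cagaactgGAACATTCtctgatgt
Havcr2, PU.1 box: aggagttaGAGGAAGTaccatttt
Ifi207, ISRE: agccaggGAAATCGAAAattaaga
Igfbp5, HSE pair: tctctttgGAAACTTCtaaaagag

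The genes that fell in WT MEF and rose in the knock-out cells included some genes of secreted and matrix proteins. Ogn, which encodes osteoglycin, a small leucine-rich proteoglycan, was at 15.1, 14 and 20.1 FPKM in untreated WT MEF and 2.44, 2.18 and 2.36 FPKM with LiCl. In HSF1 KO MEF it went from 6.33, 7.07 and 7 FPKM to 27.6, 21.1 and 30.7 FPKM. All treated libraries of WT MEF lay below all untreated ones, the reverse held in the knock-out cells, and the interaction was -4.17 (standard error 0.21, adjusted p = 2.18e-07 from limma). Fbln1, the gene of the matrix protein fibulin-1, went from 24.7, 24.1 and 23.4 FPKM to 11.7, 11.2 and 11.6 FPKM in WT MEF, while the knock-out cells went from 7.88, 8.07 and 7.22 FPKM to 26.6, 28.4 and 24.7 FPKM. With LiCl the knock-out cells thus reached the level of untreated WT MEF.

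Genes of secreted peptides and growth factor binding proteins moved in the same manner. Adm encodes adrenomedullin, a vasodilator peptide induced by hypoxia. Its level was 220, 211 and 203 FPKM in untreated WT MEF and 20.8, 18.7 and 21.2 FPKM with LiCl, and 32.6, 32.1 and 35.3 FPKM in the knock-out cells and 57.7, 61.1 and 53.6 FPKM with LiCl, which gave an interaction of -4.09 (standard error 0.10, adjusted p = 3.58e-09 from limma). Igfbp5, which binds insulin-like growth factors, went from 25.2, 24.3 and 25.1 to 4.24, 3.95 and 4.51 FPKM in WT MEF, while the knock-out cells went from 2.46, 2.65 and 3.06 to 7.68, 7.44 and 9.11 FPKM. Here the fall in WT MEF was larger than the rise in the knock-out cells, and the genotypes ended closer to each other than they began. Apln, the gene of the peptide apelin, went from 13, 13.1 and 14.8 to 3.76, 3.4 and 4.47 FPKM and from 1.91, 1.41 and 1.64 to 4.11, 4.65 and 4.93 FPKM. Edn1, the endothelin-1 gene, had a log2 response of -1.17 in WT MEF and of 0.51 in the knock-out cells, with libraries at 1.52 to 2.08 and 0.075 to 0.408 FPKM and at 5.34 to 6.46 and 8.65 to 9.26 FPKM.

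Lurap1l gave the plainest divergence, since its level was the same in both genotypes without LiCl. It was at 20.3, 20.5 and 20.7 FPKM in untreated WT MEF and 20.4, 20.2 and 21.5 FPKM in the knock-out cells, and with LiCl at 4.72, 4.34 and 5.24 FPKM in WT MEF against 42.3, 43.9 and 43.4 FPKM in the knock-out cells. The response was -1.90 in WT MEF and 1.02 in the knock-out cells (interaction -2.93, standard error 0.09, adjusted p = 1.60e-08 from limma). Olfml2b, which encodes a secreted olfactomedin-like protein, went from 21.2, 22.8 and 21.1 to 4.95, 5.43 and 5.28 FPKM in WT MEF, while the knock-out cells went from 9.19, 7.62 and 8.44 to 17.5, 20.8 and 18.1 FPKM. Ndnf, a gene of a secreted neurotrophic protein, had a rise of 1.56 in the knock-out cells that exceeded its fall of -0.70 in WT MEF, and Cacna1h, a calcium channel gene, had 0.70 and -1.17. Arhgap29, a gene of a GTPase-activating protein, had an interaction of -2.68. That of Zfp395 was -1.81 and that of the predicted gene Gm19426 was -1.79.

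For some members the rise in the knock-out cells was small. Angptl7, an angiopoietin-like gene, went from 6, 5.44 and 6.39 to 0, 0.1 and 0.087 FPKM in WT MEF but from 1.45, 1.62 and 1.22 to 1.91, 1.63 and 2.54 FPKM in the knock-out cells. Its rise of 0.31 there lost its call in 8 of 12 fits that left out 1 library, holding only without WT MEF replicate 2 or 3 or without replicate 2 of the untreated or treated knock-out cells (adjusted p up to 0.163), with replicate number as a block (adjusted p = 0.0541) and under median-of-ratios scaling (adjusted p = 0.207). Cdo1, which encodes cysteine dioxygenase, rose by 0.35 in the knock-out cells and lost its call in 4 of the 12 fits (without replicate 1 or 2 untreated or replicate 2 or 3 treated, adjusted p up to 0.115) and under that scaling (adjusted p = 0.172). H2-Ab1, a class II gene, rose by 0.40 from 2.51, 2.75 and 2.49 to 3.66, 3.55 and 3.98 FPKM, with an adjusted p of 0.0558 under that scaling. The fall in WT MEF and the interaction held in these 3 genes under each of those alternatives.

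**Figure D2:**
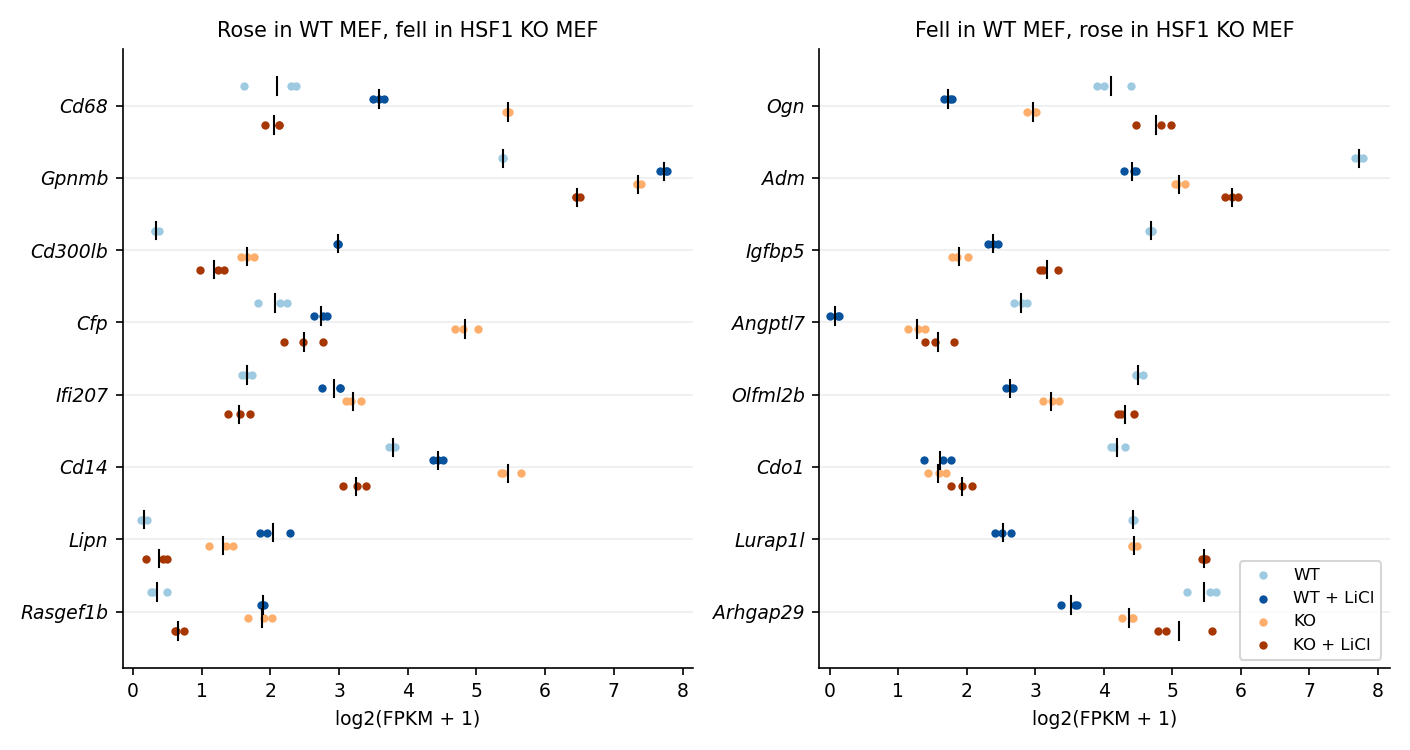
Each row is 1 of the first 8 leading genes of each opposite set, ordered by the size of the interaction, with 1 point per library, a bar at the mean of 3 libraries and log2(FPKM + 1) on the x axis. In the left panel WT MEF moves right and HSF1 KO MEF moves left with LiCl, as for Gpnmb from 40.5 to 40.8 up to 204 to 218 FPKM and from 160 to 167 down to 86.1 to 90.2 FPKM, and in the right panel the reverse is seen.

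Genes of DNA replication and mitosis were also in the set that fell in WT MEF and rose in the knock-out cells. Cdk1, the kinase gene that drives entry into mitosis, was at 3.74, 4.77 and 3.87 FPKM in untreated WT MEF and 1.25, 2.74 and 2.29 FPKM with LiCl, and at 11.6, 7.22 and 12.3 FPKM in the knock-out cells and 20.9, 18.7 and 17.7 FPKM with LiCl. Libraries with and without LiCl did not overlap in either genotype. Chaf1a, a subunit of the chromatin assembly factor that follows the replication fork, had the largest interaction of the 39 listed S phase genes, from 3.46 to 3.6 FPKM down to 2.56 to 2.78 FPKM in WT MEF, while the knock-out cells went from 6.33 to 6.62 FPKM up to 13.6 to 15.1 FPKM (interaction -1.37). Top2a (topoisomerase II alpha), Kif20a (a mitotic kinesin), Rrm1 (the large subunit of ribonucleotide reductase) and Ccne1 (cyclin E1) had interactions of -1.01, -0.58, -0.74 and -0.98. The rises of Kif20a and Rrm1 in the knock-out cells were not called under median-of-ratios scaling (0.08 and 0.02).

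Other members with known roles were scattered over several pathways. Notum, which encodes an extracellular inhibitor of WNT proteins, was at 2.32, 3.35 and 3.11 FPKM in untreated WT MEF and 1.12, 0.505 and 0.469 FPKM with LiCl, and at 0.105, 0.621 and 0.168 FPKM in the knock-out cells and 1, 0.464 and 1.32 FPKM with LiCl. Its libraries overlapped in the knock-out cells (adjusted p = 0.0432 from limma), where its rise was not called under median-of-ratios scaling (adjusted p = 0.0725) or with the replicate block. Mt1, a metallothionein gene, was far higher in WT MEF, at 940, 891 and 669 FPKM and 396, 364 and 303 FPKM with LiCl, against 134, 161 and 116 FPKM and 202, 194 and 158 FPKM in the knock-out cells. Aldh18a1, an enzyme gene of proline synthesis, and Gpt2, a glutamate-pyruvate transaminase gene, had interactions of -1.18 and -1.08. For Serpine2, a protease inhibitor gene at 1030 to 1070 FPKM in WT MEF, it was -0.79, and for Phlda1, Ajuba and the clock gene Ciart it was -1.10, -1.46 and -1.14. The rises of Mt1, Serpine2, Phlda1 and Ajuba in the knock-out cells were not called under median-of-ratios scaling, with log2 changes of 0.23, 0.07, 0.05 and 0.32, while their falls in WT MEF were.

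The genotypes changed places in many of these genes. Among the 129 genes that rose in WT MEF, 54 (41.9%) were called higher in the knock-out cells than in WT MEF without LiCl and lower with LiCl, as were 2.17% of all genes tested. Of the 162 genes with the reverse pattern, 33 (20.4%) were called lower in the knock-out cells without LiCl and higher with it, against 1.88% of all genes tested. Median FPKM in the first set was 5.01 in WT MEF, 8.21 in WT MEF with LiCl, 8.27 in the knock-out cells and 4.97 in the knock-out cells with LiCl. In the second set it was 7.09, 4.25, 5.48 and 8.55 in the same order. These comparisons use the same libraries as the interaction, so they describe the members and do not add to its test.

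The genes that rose only in the knock-out cells included 9 of 30 mitosis genes and 7 of 39 S phase genes tested, against 2.57% of all genes tested. Rrm2, the small subunit gene of ribonucleotide reductase, was at 65.1, 65.5 and 68.3 FPKM in untreated WT MEF and 73.6, 65.8 and 68.9 FPKM with LiCl, and at 45.2, 45.1 and 49.1 FPKM in the knock-out cells and 98.7, 104 and 106 FPKM with LiCl. Libraries of WT MEF with and without LiCl overlapped, and those of the knock-out cells were far apart, with a response of 0.06 in WT MEF (95% confidence interval -0.06 to 0.19) and 1.13 in the knock-out cells. E2f1, the gene of a transcription factor for S phase entry, was at 11.8, 12.6 and 11.7 FPKM in untreated WT MEF and 13.1, 12.5 and 13.6 FPKM with LiCl, and went from 11.7, 11.1 and 10.8 to 27, 27.9 and 24.6 FPKM in the knock-out cells. The 2 genotypes started alike in this gene (interaction -1.06, standard error 0.10, adjusted p = 1.43e-05 from limma).

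Bub1, a spindle checkpoint kinase gene, was at 0.387 to 0.659 FPKM in untreated WT MEF and 0.559 to 0.768 FPKM with LiCl, but went from 3.33, 2.81 and 3.08 FPKM to 7.80, 7.38 and 8.28 FPKM in the knock-out cells. Mcm3, a subunit of the replicative helicase, went from 6.69, 7.99 and 7.56 to 14.3, 16 and 16.7 FPKM in the knock-out cells and had 2.17 to 2.71 and 2.68 to 3.13 FPKM in WT MEF. Birc5 (survivin) and Ndc80 (a kinetochore protein) rose by 0.96 and 0.80 in the knock-out cells, with 0.12 and -0.13 in WT MEF. For such genes the knock-out level was already above that of WT MEF without LiCl, which was not so for Rrm2 and E2f1. The window of Mcm3 held sites for E2F factors (searched as TTTGGCGC or TTTCCCGC on both strands, 1.56% of all windows), of which 1 is printed with the site in capitals (chr1:20820263-20820282, reverse strand).
Mcm3, E2F site: tgggaagtTTTGGCGCcaag

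The lists of cell cycle genes moved with these members. Of 30 genes of mitosis and G2/M, 23 rose and none fell in the knock-out cells, while 8 rose and 6 fell in WT MEF, and 14 had a lower interaction and none a higher one. Median responses were 0.67 in the knock-out cells and 0.11 in WT MEF, against 0.16 and 0.13 over all genes tested. Of all genes tested 36.5% rose in the knock-out cells and 16.1% had a lower interaction. In this list 9 genes rose only in the knock-out cells and 3 were in the opposite set. Of 39 genes of DNA replication and S phase, 27 rose and 2 fell in the knock-out cells and 15 rose and 8 fell in WT MEF (medians 0.53 and 0.09), and the interaction was lower for 15 and higher for 2. Under median-of-ratios scaling the 2 lists still had 22 and 23 genes that rose in the knock-out cells, beside 2 that fell in each. The set that rose only in the knock-out cells then held 7 mitosis and 6 S phase genes, and 4 and 5 under quantile normalization. With a pseudocount of 0.1 it held 6 of each, and the interaction was lower for 11 mitosis and 13 S phase genes. The median response of the mitosis list was then 0.23 in WT MEF and 0.91 in the knock-out cells. Summed FPKM of the mitosis list was 40.2 to 43.8 without and 50.7 to 52.6 with treatment of WT MEF, and 173 to 184 without and 313 to 317 with treatment of the knock-out cells. Since these are bulk libraries, more cells in cycle and more RNA per cell cannot be told apart, here or for any other cell state or cell type below.

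The leading genes that rose only in the knock-out cells were of mixed function, and several were near 0 in some groups. Upk1b, which encodes a uroplakin of urothelial membranes, was at 0.265, 0.17 and 0.243 FPKM in the knock-out cells and 3.73, 3.69 and 3.62 FPKM with LiCl, against 5.69, 4.74 and 5.99 FPKM and 5.31, 5.2 and 4.93 FPKM in WT MEF. LiCl thus brought the knock-out cells most of the way to the level of WT MEF, whose fall was called under median-of-ratios scaling (-0.22, adjusted p = 0.0435 from limma). Nrg1, the gene of the growth factor neuregulin-1, went from 1.55, 1.51 and 2.4 to 7.48, 7.96 and 8.72 FPKM in the knock-out cells and from 4.16, 3 and 2.84 to 4.68, 3.67 and 4.65 FPKM in WT MEF. Mns1, a gene of sperm flagella and cilia, went from 1.09, 0.344 and 0.689 to 5.17, 4.26 and 4.04 FPKM in the knock-out cells and stayed at 0.258 to 0.362 FPKM in WT MEF. Enkd1 and the fatty acid transport gene Slc27a3 rose by 1.48 and 1.18 in the knock-out cells, with 0.01 and -0.25 in WT MEF.

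Other leading members rested on uneven libraries. Lrrc8d, a volume-regulated anion channel gene, was at 26, 26.7 and 27.8 FPKM in WT MEF and at 21.1, 5.39 and 22.6 FPKM with LiCl, so that replicate 2 with LiCl stood apart, and went from 4.02, 9.22 and 6.67 to 27.9, 26.2 and 28.2 FPKM in the knock-out cells. Slc2a3, the glucose transporter GLUT3, was low in that same library (2.72, 0.146 and 2.06 FPKM) and went from 0.025 to 0.048 FPKM to 2.1 to 2.73 FPKM in the knock-out cells. Under median-of-ratios scaling the falls of Lrrc8d and Slc2a3 in WT MEF were called (-1.06 and -0.85, adjusted p = 0.0493 and 0.0401 from limma). Zfp236 was at 2.84, 0.344 and 0.174 FPKM in the knock-out cells and 4.43, 4.48 and 3.32 FPKM with LiCl. The interaction of Zfp236 lost its call in 4 of 12 fits that left out 1 library (WT MEF replicate 3 or treated replicate 1, untreated knock-out replicate 2 or treated replicate 1, adjusted p up to 0.0574). That of Mark4, a microtubule kinase gene, lost it in 9 of 12 (adjusted p up to 0.0868) and held only without WT MEF replicate 3, untreated knock-out replicate 1 or treated knock-out replicate 2. For Rassf6 it was lost in 4 of 12 (WT MEF replicate 1 or 3, treated replicate 1, or treated knock-out replicate 2, adjusted p up to 0.0562), and its rise in the knock-out cells in 2 of 12 (untreated or treated replicate 2, adjusted p up to 0.0721). BC030867 and 4933427D14Rik were at 0 to 0.548 FPKM in WT MEF and rose in the knock-out cells to 3.63 to 4.42 and 4.75 to 5.38 FPKM, and with a pseudocount of 0.1 the interaction of BC030867 was not called. For 52 of the 316 genes the mean was under 1 FPKM in both groups of WT MEF.

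Of 25 NRF2 targets tested, 2 rose only and 2 fell only in the knock-out cells, where 10 of the 25 rose and 9 fell. The other lists gave at most 2 members each to the set that rose only there, which held 2.57% of all genes tested. Asns (asparagine synthetase) rose by 0.39, the NRF2 targets Gsta4 (a glutathione transferase) by 0.94 and Abcc1 (an export pump) by 0.28, Nkd1 (a WNT feedback inhibitor) by 1.32 and Tgfbr2 (a TGF-beta receptor) by 0.51 in the knock-out cells. Nkd1 went from 0.839, 1.73 and 0.879 to 3.93, 5.36 and 3.67 FPKM there, and was at 2.4, 3.25 and 2.31 FPKM and 3.41, 3.31 and 3.03 FPKM in WT MEF. Of the chaperone genes, only Stip1, an HSP70 and HSP90 cochaperone gene, was in this set, at 126, 125 and 127 FPKM and 145, 154 and 140 FPKM in the knock-out cells and at 114 to 119 FPKM in all libraries of WT MEF. Under median-of-ratios scaling the rises of Stip1 (0.01), Asns (0.19) and Abcc1 (0.08) were not called, while these genes (-0.17, -0.35 and -0.28) and Tgfbr2 (-0.34) were called as falling in WT MEF. Bub1 also rose in WT MEF under quantile normalization.

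**Figure D3:**
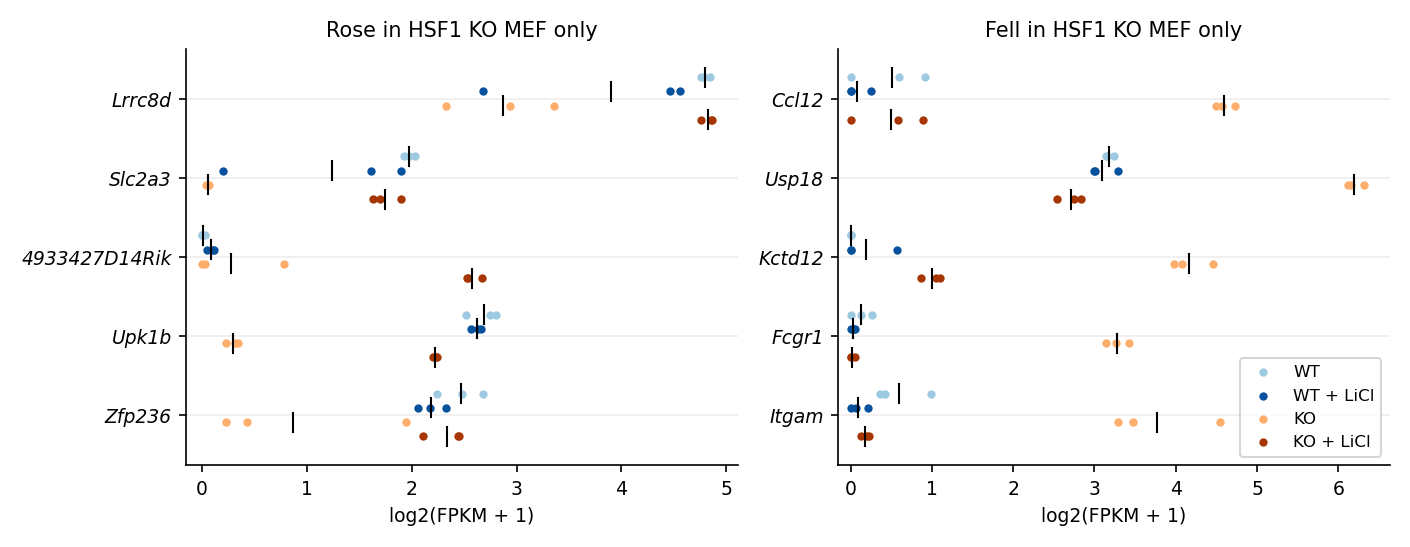
Each row is 1 of the first 5 leading genes of each set called only in HSF1 KO MEF, with 1 point per library, a bar at the mean of 3 libraries and log2(FPKM + 1) on the x axis. In the right panel untreated HSF1 KO MEF stands apart from the other 3 groups, as for Usp18 at 68.5 to 78.7 FPKM against 4.81 to 8.74 FPKM in all other libraries, whereas in the left panel untreated HSF1 KO MEF is often the lowest group.

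The genes that fell only in the knock-out cells included interferon-stimulated and macrophage genes that were high in the untreated knock-out cells. Usp18, which removes the ubiquitin-like protein ISG15 and dampens interferon signaling, was at 78.7, 70.1 and 68.5 FPKM in the knock-out cells and 5.75, 6.15 and 4.81 FPKM with LiCl. In WT MEF it was at 8.43, 7.88 and 7.82 FPKM and 7.05, 6.95 and 8.74 FPKM with LiCl. The untreated knock-out libraries stood apart from the other 9, and the response was -3.49 in the knock-out cells and -0.08 in WT MEF (95% confidence interval -0.31 to 0.15), with an interaction of 3.40 (standard error 0.15, adjusted p = 1.01e-07 from limma). Slfn2, a gene of the Schlafen family of interferon-induced genes, went from 64.2, 57.3 and 58.9 to 8.44, 8.34 and 9.23 FPKM in the knock-out cells and stayed at 11.4 to 13.8 FPKM in all libraries of WT MEF.

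Ccl12, a monocyte-attracting chemokine gene, was at 21.5, 25.5 and 22.7 FPKM in the knock-out cells and at 0 to 0.892 FPKM in all other libraries. Adam8, a membrane protease gene of leukocytes, went from 31.1, 36 and 35.9 to 2.43, 3.29 and 3.62 FPKM in the knock-out cells, with 3.99, 8.23 and 7.71 FPKM and 5.75, 5.24 and 4.36 FPKM in WT MEF. Sp100, a gene of nuclear bodies induced by interferon, went from 7.98, 7.23 and 5.98 to 0.458, 0.095 and 0.388 FPKM in the knock-out cells and was at 0.64 to 1.27 FPKM in all libraries of WT MEF. Kctd12 was at 15.8, 14.7 and 20.9 FPKM in the knock-out cells and 1.14, 0.827 and 1.07 FPKM with LiCl, and was listed at 0 in 5 of 6 libraries of WT MEF.

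Fcgr1 (an immunoglobulin receptor), Itgam (the integrin CD11b), Clec4a1 (a C-type lectin), C3ar1 (the complement C3a receptor) and Ms4a6c were also among the leading genes, and all are known from myeloid cells. In HSF1 KO MEF they fell by 2.73 (Ms4a6c) to 3.59 (Itgam) on the log2 scale. In WT MEF they were at or near 0, between 0 and 1.10 FPKM in every library. They had little or no room to fall there, so the missing call in WT MEF does not show a lack of response. Of the 228 genes, 92 had a mean under 1 FPKM in both groups of WT MEF, where the same limit holds, and 136 did not. Under median-of-ratios scaling the falls of C3ar1, Clec4a1 and Psmb8 in WT MEF were called too (-0.35, -0.45 and -0.46). In contrast, H2-K1, a class I gene, was higher in WT MEF, at 151 to 159 FPKM and 146 to 161 FPKM with LiCl, and went from 70.3, 71.1 and 60.3 to 36.6, 41.1 and 33.2 FPKM in the knock-out cells. Psmb8 (an immunoproteasome subunit), Prdx1 (a peroxiredoxin), Hsd17b7 (a sterol enzyme) and Id2 (an inhibitor of DNA binding) fell by 1.83, 0.93, 0.64 and 1.45 in the knock-out cells. With the replicate block Hsd17b7 and Eif2ak2 (the antiviral kinase PKR) were called as rising in WT MEF.

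Macrophage markers also fell in the knock-out cells, where they had been high. All 21 tested of 23 listed markers were higher in the untreated knock-out cells than in untreated WT MEF (median difference 3.15). The share of all genes tested was 17.8%. Some markers passed the filter on mean level only through those high untreated levels, so the count describes the list and is no test against that share. All 21 fell with LiCl in the knock-out cells (median -3.31). In WT MEF 13 fell and 2 rose, the latter being Cd68 and Cd14 (median -0.63), and the interaction was higher for all 21. With a pseudocount of 0.1 in place of 1 the interaction was called for 14 of the 21, all higher. Summed FPKM of the list was 125 to 135 without and 42.5 to 46.5 with treatment of WT MEF, and 1490 to 1690 without and 111 to 126 with treatment of the knock-out cells. Of the defining markers, Ptprc (CD45) and Aif1 were listed at 0 in all 6 libraries of WT MEF and in all libraries of the knock-out cells with LiCl, and were at 3.57, 3.69 and 3.94 FPKM and 2.73, 2.35 and 2.44 FPKM in the untreated knock-out cells. Neither could fall in WT MEF, and both passed the filter on mean level through the untreated knock-out cells alone. Fcgr1 and Itgam passed it in the same way, with means of 8.71 and 13.7 FPKM there and at most 0.535 FPKM in any other group. For these and other markers near 0 in WT MEF, a higher interaction followed from the untreated levels. Adgre1 (F4/80) was at 2.47 to 2.97 FPKM in untreated WT MEF and 0 to 0.249 FPKM with LiCl, and at 45.8 to 47.5 and 1.48 to 2.16 FPKM in the knock-out cells. Lyz2 (lysozyme) went from 87.8 to 95.8 down to 6.89 to 10.9 FPKM in WT MEF, while the knock-out cells went from 1050 to 1250 down to 81.9 to 92.8 FPKM, so that its response was nearly equal (-3.18 and -3.75, interaction 0.57, adjusted p = 0.0499 from limma). The part of macrophage RNA in the myeloid members of each set was not tested.

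Interferon-stimulated genes had a similar course. Of 38 tested, 37 fell in the knock-out cells (median -2.78) and 33 fell and 2 rose in WT MEF (median -1.03), and the interaction was higher for 32 and lower for 1. Most of the list thus fell in both genotypes and fell further in the knock-out cells, where 34 of the 38 had been higher without LiCl. After treatment 5 were above and 8 below the level of WT MEF, against 19.6% and 23% of all genes tested. Summed FPKM was 1240 to 1260 in WT MEF and 1140 to 1270 with LiCl, a sum held up by the abundant Ifitm3, and was 2450 to 2850 in the knock-out cells and 740 to 807 with LiCl. Only Oas1g and Usp18 of the list fell in the knock-out cells alone, and Ifi35 and Ifitm3 were in the opposite set.

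**Figure D4:**
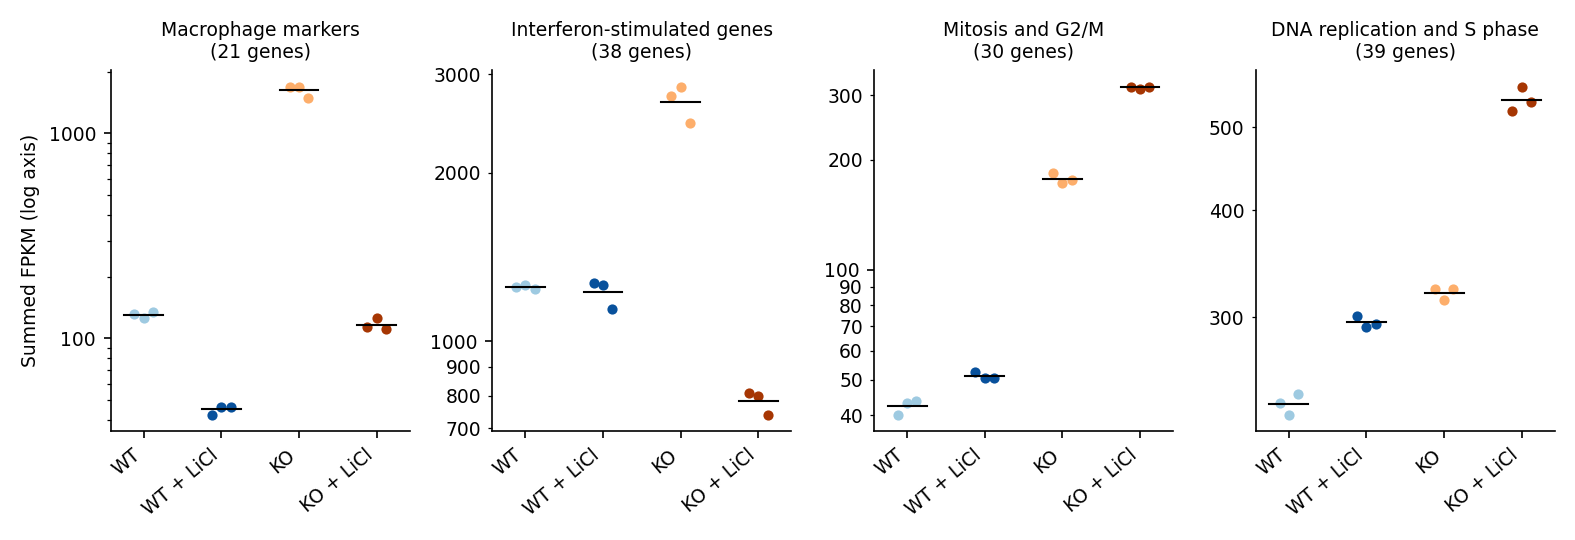
Summed FPKM of 4 gene lists (log axis) in each library, with a bar at the mean of 3 libraries per group. Macrophage markers and interferon-stimulated genes are highest in untreated HSF1 KO MEF (1490 to 1690 and 2450 to 2850 FPKM) and fall with LiCl, whereas mitosis genes and S phase genes are highest in HSF1 KO MEF with LiCl, the former at 313 to 317 FPKM.

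Promoter letters of the sets called only in the knock-out cells were set beside those of all 32851 windows, as a description. A window could be matched by symbol for 185 of the 228 genes that fell (81.1%) and 257 of the 316 genes that rose (81.3%). Of the windows of genes that fell, 9.42% held the PU.1 box and 7.17% the ISRE, against 3.20% and 3.44% of all windows. In the set that rose the shares were 3.29% and 2.99%, and E2F sites were held by 5.09% of its windows against 1.56% of all and 1.35% in the set that fell. The cell cycle homology region (CHR, TTTGAA), found in promoters of mitotic genes, was held by 14.7% of the windows of genes that rose, 14.3% of those that fell and 17.9% of all. The inverted HSE pair was held by 7.62% and 4.79% of the windows of genes that fell and rose, and by 7.86% of all. Under 80% of the genes in each opposite set had a window (79.1% and 76.5%), so their shares are less complete. Of the windows of genes that rose in WT MEF and fell in the knock-out cells, 8.4% held the PU.1 box and 7.63% the HSE pair. In the reverse set these shares were 3.27% and 5.23%. A frequent PU.1 box was thus not particular to genes that fell only in the knock-out cells. The genes tested also fell just short of 80% (79.4%), but all windows also cover genes not tested here. Of 12418 windows of genes tested, 375 (3.02%) held the PU.1 box and 376 (3.03%) the ISRE, near the shares of all windows. The CHR was held by 1493, the HSE pair by 705 (5.68%) and an E2F site by 348. By share, the CHR was rarer there than in either set called only in the knock-out cells, and the HSE pair lay between those 2 sets. E2F sites were more frequent there than in all windows, but less so than in the set that rose. Matches of different motifs overlapped in 20 windows for the HSE pair and CHR, 6 for the ISRE and CHR and at most 3 for any other pair of motifs. Fcgr1, Eif2ak2 and Evi2b (a membrane protein of blood cells) are shown as examples of the set that fell, with the match in capitals, at chr3:96293973-96293996, chr17:78882538-78882561 and chr11:79523738-79523761, all on the reverse strand, the last 2 chosen after their windows were searched.
Fcgr1, HSE pair: cctgagtaGAACCTTCcagtgtct
Eif2ak2, ISRE: ccgccggGAAAACGAAAcagaaga
Evi2b, PU.1 box: actgataaACTTCCTCtgctgcac

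Over whole pathways, the interaction more often showed unequal than opposite responses. Of 45 lysosomal hydrolases and membrane proteins, WT MEF raised 30 and lowered 5, and the knock-out cells raised 16 and lowered 9 (medians 0.67 and 0.05), and the interaction was higher for 23 and lower for 1. Of 17 genes of the vacuolar ATPase, the pump that acidifies lysosomes, 15 rose in WT MEF and 11 in the knock-out cells, with medians of 1.41 and 0.30 and a higher interaction for 13. Of the lysosomal list Cd68 and Gpnmb had opposite responses and Lipa, a lipase gene, fell only in the knock-out cells (in both genotypes under either other scaling), and none of the vacuolar ATPase genes did. Among antigen presentation genes, 6 of 19 rose and 8 fell in WT MEF while 1 rose and 12 fell in the knock-out cells (interaction higher for 10, lower for 1).

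Matrix and contractile genes fell in both genotypes. All 17 myofibroblast genes fell in WT MEF (median -1.82) and 15 fell in the knock-out cells (median -0.57), with a lower interaction for 14. Of 45 collagen and matrix genes 41 fell in WT MEF and 35 in the knock-out cells (medians -2.04 and -1.16), and the interaction was lower for 27 and higher for 3. Ogn, Fbln1 and Lamb1 were the matrix genes that rose in the knock-out cells and fell in WT MEF, and Lamb1, a laminin chain gene, did so by 0.55 and -0.16. Of 25 WNT feedback and target genes, WT MEF raised 7 and lowered 12, and the knock-out cells raised 9 and lowered 8 (medians -0.26 and 0.10), with a lower interaction for 14 and a higher one for none. Within this list Notum and Tcf7l1, a WNT-responsive repressor gene, had opposite responses, but neither rise was called under median-of-ratios scaling (0.50 and 0.08). Of 34 chaperone genes, 19 rose in WT MEF and 17 in the knock-out cells (medians 0.41 and 0.22), and the interaction was higher for 7 and lower for 4. Median interaction over all genes tested was -0.01, and it was higher for 15.3% and lower for 16.1% of them. The shares of all genes with a called rise or fall were 38.1% and 27.1% with HSF1, against 36.5% and 21.1% without it. Set beside these shares, the number of WNT genes raised in the knock-out cells was ordinary, and the chaperone interactions were not far from them. The lower interactions of the WNT list were more frequent than in all genes.

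Several genes that the study names as HSF1 targets or partners were in none of the 4 sets. Hspa4, an HSP70 family gene, rose only in WT MEF, from 63.1 to 63.9 FPKM up to 84.3 to 85.9 FPKM, with 83.2 to 91.9 and 77 to 86.9 FPKM in the knock-out cells (interaction 0.48, adjusted p = 0.00121 from limma). Hsph1, the gene of HSP110, rose in both, by 0.66 and by 1.09 in the knock-out cells (interaction -0.43, adjusted p = 0.0182). Hsp90aa1 and Hspb1 had interactions of -0.01 and -0.16 (adjusted p = 0.983 and 0.517). Hspa9, the mitochondrial HSP70 gene, rose by 1.12 in WT MEF and 0.69 in the knock-out cells (interaction 0.44, adjusted p = 0.000374 from limma). Kif21a rose by 1.26 and 0.93, with an interaction of 0.33 (95% confidence interval -0.04 to 0.71, adjusted p = 0.168). Tma16 had 0.73 and 0.27 (adjusted p = 0.338 for the interaction), and Ctnnb1, which encodes β-catenin, had -0.14 and -0.10 (95% confidence interval of the interaction -0.47 to 0.40, adjusted p = 0.915). For Hsf1 itself the response was 0.49 in WT MEF and 1.08 in the knock-out cells, and the difference did not pass (adjusted p = 0.349). Col27a1 and Mettl3 had interactions of 0.20 and 0.58 with adjusted p of 0.538 and 0.388.

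**Figure D5:**
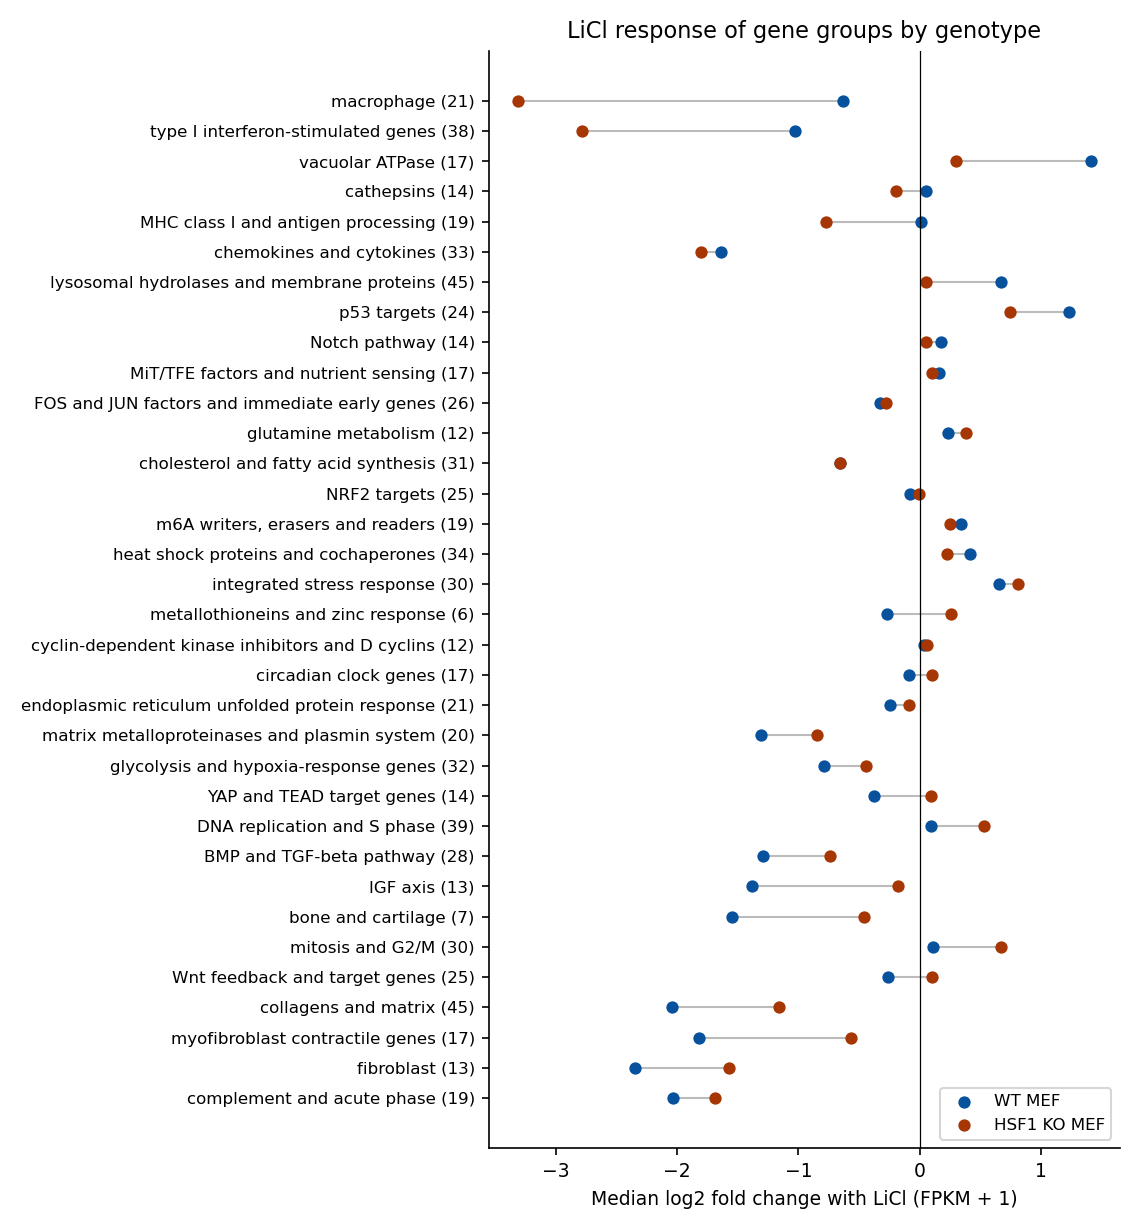
Median log2 fold change with LiCl of each gene list with at least 5 genes tested (number of genes in parentheses), in WT MEF and HSF1 KO MEF, on the log2(FPKM + 1) scale, ordered by the median interaction. Macrophage markers lie farthest apart at the top (-0.63 and -3.31), the vacuolar ATPase rises more in WT MEF (1.41 and 0.30), and mitosis genes rise mainly in HSF1 KO MEF (0.67 against 0.11).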

How the data were processed

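Libraries were made from polyadenylated RNA and kept the strand. For the upstream steps cutadapt, HISAT2 2.0.5, StringTie and GRCm38 are named by the submitters, with no annotation release. A table of 27185 transcripts was deposited by the authors. Its unit is not given in the sources used here, and the deposited values were read as FPKM. Depth in reads is unknown, so precision was taken from the spread between libraries. No source says that the libraries were separate cultures, so p-values may cover technical spread only. Replicate 3 is the library whose label has no number.

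Transcripts were matched by ID to GENCODE mouse release 21 (GRCm38) and summed to 12988 genes, leaving out 70 unmatched transcripts. The 12279 genes that averaged 0.5 FPKM or more were fitted on log2(FPKM + 1) with limma 3.58.1 in R 4.3.3 (empirical Bayes, with trend), as 4 group means in one fit, and p-values were adjusted by Benjamini-Hochberg across the genes fitted. A fold change on this scale understates the change of low genes. A knockout-only response needed a called response in HSF1 KO MEF, none in WT MEF and a called interaction. Genes named were the 15 with the largest interaction in each opposite set and the 12 in each knockout-only set (mean of at least 1 FPKM, no overlap of libraries with and without LiCl where a response was called), up to 4 members of each of 40 gene lists by interaction adjusted p, and genes the study names. Other members named, such as Lgals3, Jag1, Edn1, Mt1 and Serpine2, were chosen after their values were seen, and a few genes the rule names are not reported here. The members and gene lists were chosen with earlier results of these data known. The fit was tested on simulated data. Promoter windows are from RefSeq (GRCm38.p6). Alternatives were the pseudocount (0.1), scaling, the filter, the variance trend, a replicate block, a fold limit, leaving out each library and, added after seeing the data, the highest transcript of a gene in place of the sum and limits on low levels.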

Additional observations from a re-analysis of the deposited data

Results flagged for a closer look

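Differences between the genotypes under the same LiCl contrast were tested directly, and these results stood out by that test. For 1875 genes the response of WT MEF exceeded that of HSF1 KO MEF, and for 1971 genes it was lower (limma, adjusted p under 0.05). Responses of opposite sign, called in each genotype, were found for 129 genes that rose in WT MEF and for 162 genes that rose in HSF1 KO MEF. Among genes with a called difference, 316 rose and 228 fell in HSF1 KO MEF with no call in WT MEF.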

How the results depend on the processing

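With 1 library left out, the interaction was called for 3399 to 3708 genes in place of 3846, the responses for 7505 to 8068 genes in WT MEF and 6489 to 7092 in HSF1 KO MEF, and the 4 sets held 107 to 129 (WT MEF up, HSF1 KO MEF down), 125 to 156 (the reverse), 276 to 320 (HSF1 KO MEF up only) and 199 to 242 genes (HSF1 KO MEF down only). A filter on a mean of at least 5 FPKM, which tests fewer genes, left 2500 interaction calls and 76, 95, 167 and 101 genes in the same order. With the highest transcript of each gene the reverse set held 105 genes, and a log2 change of at least 0.5 in each called response left 37 and 35 genes with opposite responses. At least 1 FPKM in a group of WT MEF left 136 genes of the last set. Median-of-ratios scaling gave 158, 126, 232 and 292 genes, of which 90, 78, 186 and 188 were members under FPKM.

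Of the values for named genes, 3272 of 3312 kept direction and side of the threshold with 1 library left out. Changes of sign were seen for the interaction of Ctnnb1, which was called under none of them (-0.16 to 0.12 with 1 library left out), and with the highest transcript for the interaction of Cdkn2d (0.93) and the WT response of Cd300lf (0.00). The cause was not tested.

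The sources used here do not say that libraries with the same number share a culture or a run. Deviations from the group means correlated at -0.010 to 0.138 in the 12 pairs numbered alike, 1 of them over 0.1, and at 0.125 to 0.195 in the 6 pairs of unnumbered libraries, so the unnumbered libraries deviated together and pairing of the others was not shown. Pairs with different numbers had a median of -0.056, with 2 of 36 over 0.1. With the replicate block the interaction was called for 4375 genes and the 4 sets held 156, 192, 363 and 246 genes. FPKM gives no read counts, so the counting error of low genes, on which much of the knockout-only fall rests, is unknown.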
